A study of Mus musculus with 6 samples.

Results

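The genes described here are the 41 mouse genes whose name on the array begins with H2-, out of 35527 gene names. H2 is the mouse major histocompatibility complex (MHC), and the 51 probes of these genes were taken by name alone, with 1 probe per gene, the one with the highest mean log2 processed signal over all arrays. By their names they fall into 2 classical class I genes, 27 non-classical class I genes, 10 class II genes and 2 further genes, H2-Ke2 and H2-Ke6, which lie in the complex and present no antigen. Of these, 27 were flagged by the scanner as well above background on 3 or more of the 6 arrays, and these were tested.

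The study compared adult mice lacking H19, an imprinted long non-coding RNA, with wild-type littermates. Both genotypes had undergone transverse aortic constriction (TAC), a surgical narrowing of the aorta that loads the left ventricle, and cardiomyocytes were isolated from them by retrograde perfusion 6 weeks later. Total RNA of 3 samples per genotype was hybridised to 1-colour arrays. All samples had TAC, so no unoperated heart is compared, and the labels give neither strain nor sex, nor whether each array is 1 mouse, so p-values reflect only the spread among these 6 samples, which may be technical.

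Class I molecules are heavy chains that pair with beta-2-microglobulin and show peptides from inside the cell to CD8 T cells; nearly all nucleated cells make them. Non-classical class I molecules have the same fold, and several are ligands of natural killer or gamma-delta T cell receptors. Class II molecules are pairs of alpha and beta chains that show peptides from taken-up protein to CD4 T cells, and are made mainly by macrophages, dendritic cells and B cells. In the heart, class II transcripts are known chiefly from resident macrophages and dendritic cells, while interferon-gamma raises class I in many cell types.

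Some H2 probes share bases with related genes or with each other, so a few are shown before their values, with the bases that matter in capitals. The second H2-K1 probe (chr17:34133984-34134043, minus strand, mm9) and the H2-T23 probe (spread over chr17:36167338-36167574, minus strand, mm9) have 29 bases in common.
H2-K1 second probe: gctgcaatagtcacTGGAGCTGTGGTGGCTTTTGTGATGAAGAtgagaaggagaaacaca
H2-T23 probe: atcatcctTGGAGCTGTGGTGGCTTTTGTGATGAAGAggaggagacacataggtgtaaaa

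The pair of H2-Ab1 probes (chr17:34406296-34406355 and chr17:34406305-34406363, plus strand, mm9) overlap by 51 bases with 1 mismatch, T51C, counted from 1 at the 5′ end of the first probe. They are 2 readings of almost the same stretch, not independent ones. A stretch of 30 bases of each is given with the mismatch in capitals.
H2-Ab1 first probe: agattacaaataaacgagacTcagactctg
H2-Ab1 second probe: agattacaaataaacgagacCcagactctg

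The probe of H2-gs10, which RefSeq names H2-Q4 (chr17:35521294-35521353, plus strand, mm9), holds a stretch that recurs in other genes' promoters. The 20 bases in capitals were found in 24 promoter windows of 23 genes in RefSeq's GRCm38.p6 table, whereas no run of 20 bases of any other H2 probe was found in any of its 32851 windows. Among the other probes, that of H2-Q6 shares 54 bases with a probe named LOC68395 and that of H2-Q7 shares 28 with a probe named Gm7035. Whether these values include other transcripts was not tested.
H2-gs10 probe: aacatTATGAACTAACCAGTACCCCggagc

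Promoters of 5 class II genes are shown to illustrate the boxes this class is known for. Class II promoters are known for an ordered run of boxes that ends in a Y box, an inverted CCAAT box read as ATTGG, where the factor NF-Y binds. In the 300 bases around the start given by RefSeq (GRCm38.p6), ATTGG occurred on 1 strand or the other in all 8 class II genes that had a window, and in 37.4% of all windows. Its position is marked in capitals in a stretch of 80 bases of the 5 in which it lay nearest the start, each read in the direction of the gene. H2-Oa, one of them, was too dim to be tested.
H2-Aa promoter (chr17:34287852-34287931, minus strand): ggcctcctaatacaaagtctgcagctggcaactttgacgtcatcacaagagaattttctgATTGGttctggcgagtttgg
H2-Eb1 promoter (chr17:34305748-34305827, plus strand): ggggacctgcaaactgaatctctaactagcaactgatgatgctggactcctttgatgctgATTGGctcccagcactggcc
H2-DMb1 promoter (chr17:34153070-34153149, plus strand): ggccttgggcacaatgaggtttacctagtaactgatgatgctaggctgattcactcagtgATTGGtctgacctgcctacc
H2-Ob promoter (chr17:34238788-34238867, plus strand): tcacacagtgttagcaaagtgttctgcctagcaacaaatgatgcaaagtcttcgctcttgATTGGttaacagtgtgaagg
H2-Oa promoter (chr17:34092276-34092355, plus strand): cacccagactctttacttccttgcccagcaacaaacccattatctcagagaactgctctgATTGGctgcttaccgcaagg

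The match lay 43 to 61 bases before the annotated start in these 5 genes. It lay 90 bases before it in H2-DMb2, 100 in H2-Eb2 and 198 in H2-DMa, and the other annotated start of H2-DMa had no match in its window. ATTGG was also present in 17 of 20 class I genes with a window, so the motif alone does not separate the classes. TATAAA, searched on both strands, was found in 13 of 20 class I genes, in 0 of 8 class II genes and in 13.6% of all windows.

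Classical class I promoters are known for enhancer A, a site of NF-kappa-B, followed by an interferon-stimulated response element. The longest run around the letters ATTCCCC, the end of enhancer A, that was the same in windows of H2-K1, H2-D1 and H2-Q6 had 21 bases. It was present in 4 of 32851 windows (0.0122%), all of them of these genes, since H2-K1 has 2 annotated starts. That is 3 of 20 class I genes and 0 of 8 class II genes with a window. The run was read from these 3 genes, so its presence in them was given in advance, and most class I genes with a window lacked it. It is in capitals in the 76 bases below (GRCm38.p6).
H2-K1 promoter (chr17:34000407-34000482, minus strand): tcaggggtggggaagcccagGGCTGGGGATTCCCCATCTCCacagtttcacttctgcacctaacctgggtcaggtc
H2-D1 promoter (chr17:35262899-35262974, plus strand): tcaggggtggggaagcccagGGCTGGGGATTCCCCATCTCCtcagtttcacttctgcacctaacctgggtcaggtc
H2-Q6 promoter (chr17:35424653-35424728, plus strand): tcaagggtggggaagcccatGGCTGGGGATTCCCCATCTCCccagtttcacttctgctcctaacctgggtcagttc

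The H2-K1 and H2-D1 stretches are identical at 75 of 76 bases, and the H2-Q6 stretch matches each of them at 71. These matches describe letters in a window and say nothing of binding.

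Values below are log2 of the processed signal minus the array's own 75th percentile, so 0 is the signal of that percentile, and a difference is knockout minus wild type. Each probe has its own response, so levels are compared across arrays and not between genes. Within a genotype, arrays are listed in the order of their replicate numbers, 1 to 3. H19 itself was 1.41, 0.46 and 0.53 on the wild-type arrays and -5.97, -6.72 and -6.28 on the knockout arrays, where its probe was not well above background (adjusted p = 0.0024, limma with Benjamini-Hochberg adjustment). The 75th percentiles ranged from 774 to 1152 intensity units, no spot was saturated and the arrays correlated at 0.981 to 0.99. Of 59305 spots, 54.5%, 55.3% and 55.4% were well above background on the wild-type arrays. On the knockout arrays 48.8%, 58.6% and 51.2% were. Replicate 1 of each genotype was on slide 1 and the others on slide 2.

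The 38 H2 genes with a coordinate lie on chromosome 17 between 34076578 and 37618439 (mm9). Class I and class II genes were both readily measured. The classical class I genes H2-K1 and H2-D1, and 25 of the 27 tested genes in all, were well above background on every array. The 14 genes left out were 10 non-classical class I genes (H2-M1, H2-M5, H2-M9, H2-M10.1, H2-M10.2, H2-M10.3, H2-M10.6, H2-Q1, H2-T18 and H2-T3-like) and 4 class II genes (H2-DMb2, H2-Ea-ps, H2-Eb2 and H2-Oa). Of these, 13 were well above background on no array and H2-Oa on 1 knockout array.

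H2-Eb1, the beta chain of the E molecule, was well above background on all 6 arrays while its alpha chain partner, listed as H2-Ea-ps, was on none. The Ea gene is known to be silent in mouse strains that carry a deletion at its promoter, the b haplotype among them. H2 genes differ in sequence between strains, and since the labels name no strain, mismatches between the probes and the alleles of these mice, and their part in low values, were not tested.

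No H2 gene passed the test between genotypes. With limma across 21920 genes, 0 of 27 were called at an adjusted p of 0.05, where 0.0319% of all genes were called (7 genes), and the smallest adjusted p of an H2 gene was 0.63, for H2-T3. At an unadjusted p under 0.05, 1 H2 gene (H2-T3) was lower in the knockout and none was higher, where 6.95% of all genes were lower and 0.999% higher. The 95% confidence interval of the difference included 0 for 26 of 27 genes.

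The fitted differences leaned to 1 side. They were negative for 26 of the 27 tested genes, with a median of -0.36, where 63.7% of all genes had a negative difference and the median of all genes was -0.061; with each array scaled to its own median over all probes instead (median scaling), which adds 0.42 to every difference, 9 of 27 were negative and these medians were 0.069 and 0.36. On either scale the H2 median lay 0.29 below the median of all genes. It was -0.41 between the arrays of slide 1 and -0.28 between those of slide 2. Without knockout array 1 it was -0.15, which is 0.026 below the median of all genes, without wild-type array 3 it was -0.22, and without knockout array 2 it was -0.57.

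**Figure D1:**
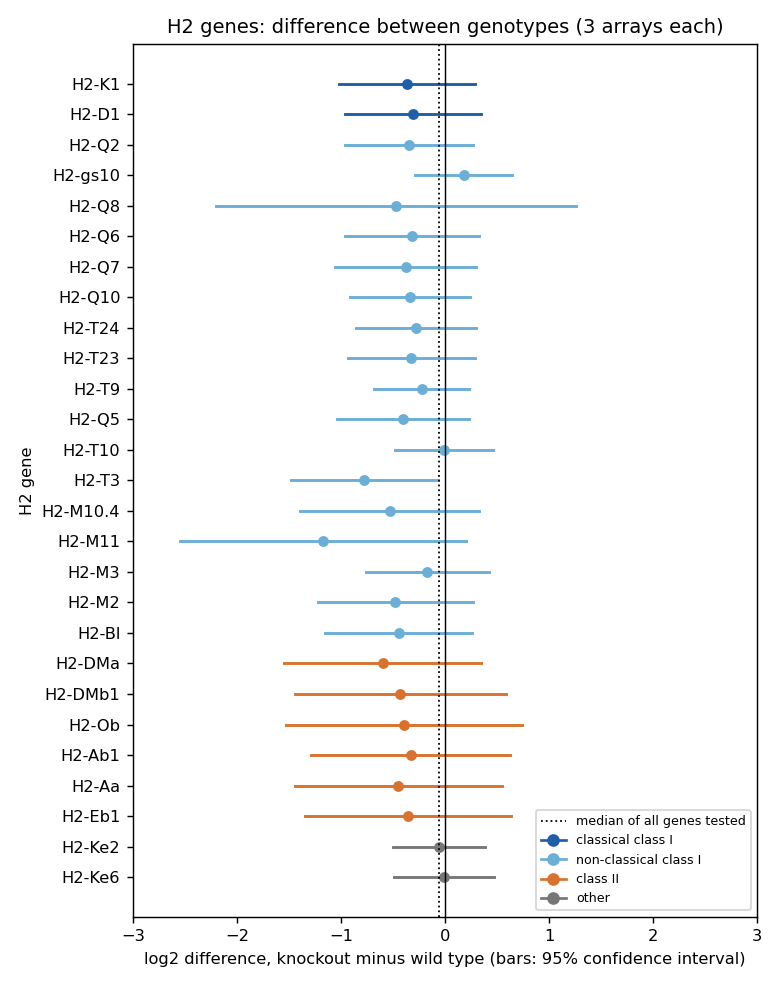
Log2 difference, knockout minus wild type, of the 27 tested H2 genes, with 3 arrays per genotype; points are fitted differences, bars their 95% confidence intervals, colours the classes and the dotted line the median of all genes tested. With the 75th percentile scaling 26 points lie left of 0 (9 with median scaling), and only the bar of H2-T3 excludes 0.

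The class II alpha and beta chains that sit at the cell surface had very similar profiles. H2-Aa, the alpha chain of the A molecule (chr17:34421285-34421344, minus strand, mm9), was -0.65, -0.35 and 0.59 on the wild-type arrays and -0.95, 0.14 and -0.94 on the knockout arrays. H2-Ab1, its beta chain, was 3.93, 4.30 and 5.24 on the wild-type arrays and 3.78, 4.77 and 3.92 on the knockout arrays. H2-Eb1 (chr17:34453075-34453134, plus strand, mm9) was 3.85, 4.10 and 5.07 on the wild-type arrays and 3.55, 4.71 and 3.69 on the knockout arrays.

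In all of them wild-type array 3 was highest and knockout array 2 second, and the genotypes overlapped. The differences were -0.45 ± 0.42 (SE, n = 3 per genotype) for H2-Aa, -0.33 ± 0.40 for H2-Ab1 and -0.36 ± 0.42 for H2-Eb1. Without wild-type array 3 the difference of H2-Ab1 was 0.044 and that of H2-Eb1 was 0.0084. The second H2-Ab1 probe gave -0.29.

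H2-DMa and H2-DMb1 encode the chains of DM, which exchanges the invariant chain fragment for peptide on class II molecules inside the cell. H2-DMa (chr17:34274300-34274863, plus strand, mm9) was -2.37, -2.04 and -1.37 on the wild-type arrays and -3.18, -1.80 and -2.61 on the knockout arrays. H2-DMb1 (chr17:34297109-34297168, plus strand, mm9) was -0.93, -0.43 and 0.25 on the wild-type arrays and -1.26, 0.0059 and -1.16 on the knockout arrays. Both again had wild-type array 3 at the top, and their differences were -0.60 ± 0.40 (SE) and -0.43 ± 0.43.

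H2-Ob, the beta chain of DO, an inhibitor of DM, was near the limit, with 2 arrays of each genotype well above background. It was -3.44, -3.30 and -3.62 on the wild-type arrays and -4.91, -2.85 and -3.79 on the knockout arrays, and the difference of -0.39 ± 0.48 (SE) was 0.14 without knockout array 1. Quantile normalization also turned it positive (0.053). Its partner H2-Oa was not tested.

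Across the 6 tested class II genes the median difference was -0.41, with a range from -0.60 to -0.33, and 0 of 6 were called. It was -0.31 within slide 1 and -0.46 within slide 2. It was -0.82 without knockout array 2, -0.66 without wild-type array 1, -0.26 without knockout array 3, -0.17 without knockout array 1 and -0.10 without wild-type array 3. With median scaling it was 0.0125, with 3 of 6 negative.

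The arrays kept a common order across most of these genes. From high to low it was wild-type 3, knockout 2, wild-type 2, wild-type 1, knockout 3 and knockout 1 for 5 of the 6 class II genes (H2-Aa, H2-Ab1, H2-Eb1, H2-DMa and H2-DMb1), for the class I genes H2-Q2 and H2-T23, and for 0.169% of all genes tested (37 of 21920). This order has 1 knockout array among its 3 highest. The arrays' shares of spots well above background fell in the same order, except that knockout 2 (58.6%) stood above wild-type 3 (55.4%). Whether that share bears on the H2 values was not tested. The order was noticed in the values of these genes and is given as a description.

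**Figure D2:**
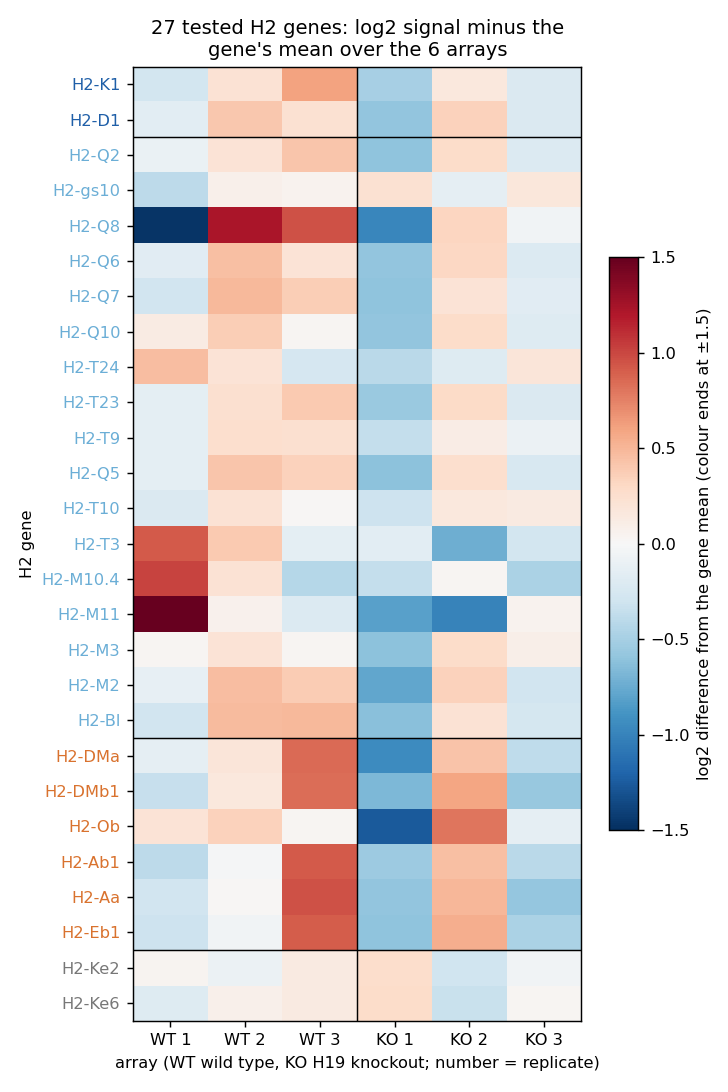
Log2 signal of the 27 tested H2 genes on each array minus the gene's mean over the 6 arrays, red above and blue below; rows are ordered by class (dark blue names classical class I, light blue non-classical class I, orange class II, grey other) and position, and the vertical line parts the genotypes. Knockout array 1 was lowest for 20 of the 27 genes, and wild-type arrays 2 and 3 and knockout array 2 were the 3 highest for 16.

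The classical class I genes followed a similar pattern with a smaller range. H2-K1 (chr17:34133055-34133114, minus strand, mm9) was 5.13, 5.61 and 6.01 on the wild-type arrays and 4.90, 5.56 and 5.19 on the knockout arrays. H2-D1 (chr17:35403886-35403945, plus strand, mm9) was 3.33, 3.89 and 3.72 on the wild-type arrays and 2.90, 3.84 and 3.28 on the knockout arrays. Wild-type arrays 2 and 3 and knockout array 2 were the 3 highest for both, so the genotypes overlapped.

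The difference was -0.37 ± 0.27 (SE, n = 3 per genotype; 95% confidence interval -1.02 to 0.28) for H2-K1 and -0.31 ± 0.28 (-0.96 to 0.35) for H2-D1. The second H2-K1 probe, the one that shares bases with H2-T23, gave -0.39. The pair's median was -0.33 within slide 1 and -0.34 within slide 2. With median scaling the differences were 0.058 and 0.12.

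Among the 17 tested non-classical class I genes 0 were called, 16 had a negative difference (6 of all 19 class I genes with median scaling) and the median was -0.35. H2-Q7, which encodes the Qa-2 antigen, was 3.65, 4.42 and 4.30 on the wild-type arrays and 3.33, 4.13 and 3.76 on the knockout arrays, a difference of -0.38 ± 0.28 (SE). H2-T23, which encodes Qa-1, the ligand of the CD94/NKG2A receptor of natural killer cells, was 3.29, 3.68 and 3.82 on the wild-type arrays and 2.88, 3.72 and 3.21 on the knockout arrays, a difference of -0.33 ± 0.26. Both had the same 3 highest arrays as H2-K1.

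H2-M3, which presents peptides that begin with formylmethionine, was 0.31, 0.50 and 0.31 on the wild-type arrays and -0.33, 0.56 and 0.37 on the knockout arrays. Its difference of -0.17 ± 0.25 (SE) was 0.093 without knockout array 1. H2-T10, of a pair of genes whose products are ligands of gamma-delta T cell receptors, had a difference of -0.011 ± 0.20.

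H2-T3, which encodes a thymus leukaemia antigen best known from gut epithelium and thymus, was the only tested H2 gene whose genotypes did not overlap, where 8.67% of all genes had all knockout arrays below all wild-type arrays. It was -2.54, -3.06 and -3.60 on the wild-type arrays and -3.61, -4.19 and -3.73 on the knockout arrays. The lowest wild-type and the highest knockout value were nearly equal. The difference was -0.78 ± 0.30 (SE, 95% confidence interval -1.49 to -0.069), with an adjusted p of 0.63 by limma. It was -0.40 with quantile normalization and -0.51 without wild-type array 1. The H2-T3 probe was well above background on all 6 arrays but dim, with a median processed intensity of 77.8. That of H2-Ob was 73.7 and that of H2-M10.4 was 74.1.

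H2-M11 was -0.85 on wild-type array 1 and between -3.77 and -2.69 on the other 5 arrays, and its difference of -1.18 ± 0.58 (SE) was -0.52 without wild-type array 1. It was -2.72 between the arrays of slide 1 and -0.41 between those of slide 2. H2-M10.4, of a family known from the vomeronasal organ, was well above background on 3 wild-type arrays and 1 knockout array, with a difference of -0.53 ± 0.36. That difference was -1.37 within slide 1 and -0.11 within slide 2, -0.16 without wild-type array 1 and -0.12 with quantile normalization.

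H2-Q8 was lower on slide 1 than on slide 2 in both genotypes. It was -2.19 on wild-type array 1 and -1.70 on knockout array 1, both on slide 1, against 0.51 and 0.24 on the wild-type and -0.39 and -0.77 on the knockout arrays of slide 2. The difference was -0.47 ± 0.73 (SE), with 0.49 within slide 1 and -0.95 within slide 2.

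H2-gs10, whose probe sequence was given above, was the only tested H2 gene with a positive difference, where median scaling gave 18. It was 4.77, 5.25 and 5.22 on the wild-type arrays and 5.40, 5.03 and 5.34 on the knockout arrays, a difference of 0.18 ± 0.19 (SE). Knockout array 1, the lowest array for 20 H2 genes, was the highest here. H2-M2 also had a second probe, which was well above background on no array (-6.77 to -5.41). The remaining non-classical genes (H2-Bl, H2-M2, H2-Q2, H2-Q5, H2-Q6, H2-Q10, H2-T9 and H2-T24), together with H2-Q7 and H2-T23, had differences from -0.48 to -0.23. The H2-Q5 probe (chr17:36246864-36247298, minus strand, mm9) lies nearer the H2-T10 probe, which starts at 36255918, than any other H2-Q probe. It was matched to RefSeq by symbol, and which transcript it reads was not tested.

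H2-Q10, which encodes a secreted class I molecule of liver, had 2 tested probes with differences of -0.34 and -0.0020, the second of which shares 22 bases with the H2-T3 probe.

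H2-Ke2, a subunit of the chaperone prefoldin, and H2-Ke6, a steroid dehydrogenase, lie beside the antigen-presenting genes and have other functions. H2-Ke2 was 4.10, 3.98 and 4.21 on the wild-type arrays and 4.33, 3.77 and 4.02 on the knockout arrays. H2-Ke6 was 4.42, 4.69 and 4.75 on the wild-type arrays and 4.89, 4.28 and 4.65 on the knockout arrays. Knockout array 1 was the highest array for both and knockout array 2 the lowest, whereas knockout array 1 was the lowest for 20 other H2 genes; their differences were -0.060 ± 0.19 (SE) and -0.015 ± 0.20.

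Over all 27 tested H2 genes, knockout array 1 was the lowest array for 20 (all 6 class II and 14 of 19 class I genes), as it was for 14.0% of all genes tested. Wild-type arrays 2 and 3 and knockout array 2 were the 3 highest for 16 H2 genes (5 of 6 class II and 11 of 19 class I), against 1.77% of all genes. The same arrays had the 3 highest shares of spots well above background, and knockout array 1 had the lowest (48.8%). These patterns of the H2 genes, too, were noticed in their values and are given as a description.

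Genes that load peptide onto class I molecules were examined next. Of the 14 on the list, 14 were tested, 0 were called, 11 had a negative difference (5 with median scaling) and the median was -0.23. Without wild-type array 3, 7 were negative and the median was 0.013. B2m, the light chain of class I, was 4.57, 5.42 and 5.92 on the wild-type arrays and 4.76, 5.19 and 5.21 on the knockout arrays, a difference of -0.25 ± 0.35 (SE).

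Among these genes, 4 had all knockout arrays below all wild-type arrays, as had 8.67% of all genes. Tap1, a subunit of the peptide transporter, was -2.75, -2.34 and -0.59 on the wild-type arrays and -3.51, -2.99 and -2.87 on the knockout arrays. Psmb9, a subunit of the immunoproteasome, was 1.67, 1.82 and 3.28 on the wild-type arrays and 0.75, 1.52 and 1.19 on the knockout arrays. Both stood highest by more than 1 log2 unit on wild-type array 3.

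Their differences were -1.23 ± 0.54 (SE; adjusted p = 0.63 by limma) for Tap1 and -1.10 ± 0.45 (adjusted p = 0.63) for Psmb9, and -0.57 and -0.59 without wild-type array 3. The others were Psmb8, a further immunoproteasome subunit, at -0.83 ± 0.37, and Tapbpl, a peptide editor, at -0.68 ± 0.24 (adjusted p = 0.62), which were -0.47 and -0.45 without wild-type array 3.

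Of 6 genes that prepare class II molecules, 6 were tested, 0 were called, 5 had a negative difference (2 with median scaling) and the median was -0.20. Cd74, the invariant chain, was 1.87, 2.26 and 3.22 on the wild-type arrays and 1.52, 2.75 and 1.69 on the knockout arrays, the same order of arrays as the class II genes, with a difference of -0.46 ± 0.44 (SE), or -0.078 without wild-type array 3. Ctss, the cathepsin that trims the invariant chain, had a difference of -0.77 ± 0.38.

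Of 19 regulators of H2 transcription 17 were tested, 0 were called, 7 had a negative difference (3 with median scaling) and the median was 0.015. Ifng, the gene of interferon-gamma, and Rfx5, which binds class II promoters, were not tested because their probes were too dim. Nlrc5, the transactivator of class I genes, was -0.85, 0.48 and 2.68 on the wild-type arrays and -1.61, -0.71 and -0.36 on the knockout arrays, a difference of -1.66 ± 0.84 (SE) that was -0.71 without wild-type array 3.

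Irf1, an interferon-induced factor of class I promoters, had a difference of -0.80 ± 0.34 (SE; adjusted p = 0.63 by limma), or -0.48 without wild-type array 3. All knockout arrays lay below all wild-type arrays for 1 regulator, as for 8.67% of all genes, and above them for 2, as for 1.83% of all genes. These 2 were Creb1, a factor of class I and class II promoters, at 0.39 ± 0.18, and Jak1, a kinase of the interferon receptors, at 0.18 ± 0.13, and neither was called.

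Ciita, the transactivator of class II genes, ran against them. It was -2.39, -3.15 and -3.03 on the wild-type arrays and 0.64, -3.73 and -3.67 on the knockout arrays, so that knockout array 1, lowest for all 6 class II genes, was 3.79 above the median of the other arrays for Ciita. Its difference was 0.60 ± 1.13 (SE) over all arrays and -0.84 without knockout array 1. This value is from 1 probe, in which 54 of 60 bases are A or C. Of 3 other probes that share 20 bases with it, 1 was tested, that of Cbln2. There knockout array 1 was 0.20 below the median of the other arrays. Whether the probe's sequence bears on the Ciita value was not tested.

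**Figure D3:**
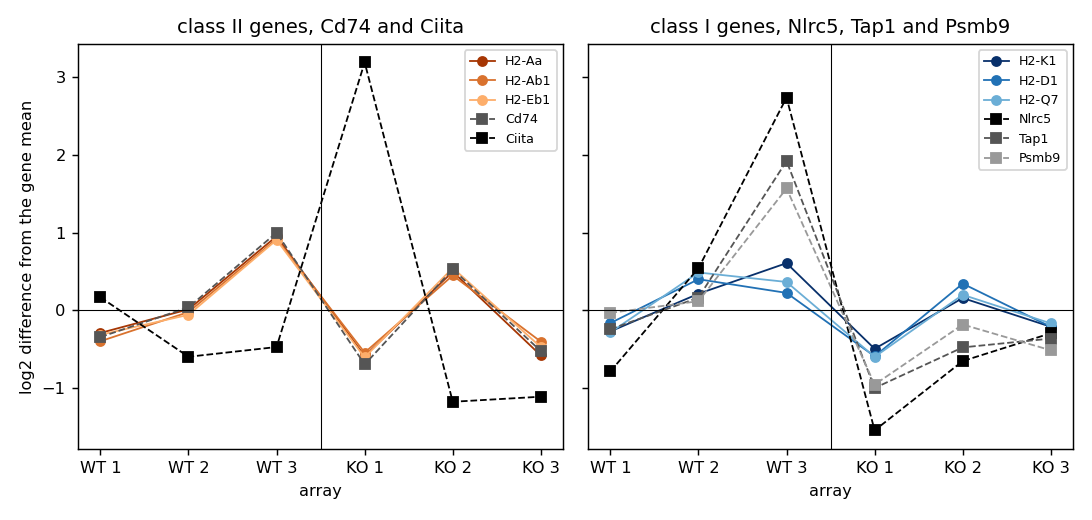
Log2 signal minus the gene's mean over the 6 arrays for class II genes with Cd74 and Ciita (left) and for class I genes with Nlrc5, Tap1 and Psmb9 (right); each point is 1 array, and lines join the points of a gene only. Cd74 follows the class II genes, Ciita is high on knockout array 1, and Nlrc5, Tap1 and Psmb9 are highest on wild-type array 3.

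Class I-like genes outside the H2 names had small differences. All 5 tested of 6 (Cd1d1, Mr1, Hfe, Fcgrt and Procr; Azgp1 was too dim) had differences above 0 (median 0.17), and 0 were called. The median was 0.039 with the mean of a gene's probes and 0.078 without knockout array 3, where 4 of 5 were above 0. Of 8 genes of receptors that bind H2 molecules 3 were tested and 0 called; Pirb, an inhibitory receptor of myeloid cells for class I, had a difference of -0.86 ± 0.33 (SE; adjusted p = 0.63 by limma), and Cd8a, Cd8b1, Lag3, Klrd1 and Klrc1 were too dim.

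Markers of the labelled cell type and of other heart cells were measured. All 9 cardiomyocyte markers were tested, 0 were called, and 7 had a negative difference (0 with median scaling, 4 without knockout array 2). For 2 of them (Myh6 and Mb) all knockout arrays lay below all wild-type arrays, as for 8.67% of all genes. The median of the 9 markers' deviations from the gene mean lay between -0.22 and 0.093 on every array. All 10 macrophage markers were tested, 0 were called, and all 10 had a negative difference (5 with median scaling), with a median of -0.45, which was -0.26 without knockout array 1 and -0.78 without knockout array 2. Of 6 dendritic cell markers only Zbtb46 was tested, and Itgax, Flt3, Xcr1, Clec9a and Cd209a were not well above background on 3 arrays. Of 4 B cell markers only Cd79b was tested. Of 7 T and NK cell markers 5 were tested and 0 called (1 with median scaling), with a median of 0.50 that was 0.25 with normexp background correction, 0.021 without wild-type array 3 and 0.013 without knockout array 3.

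The macrophage markers moved with the class II genes from array to array. Their median deviation was 0.085, 0.20 and 0.52 on the wild-type arrays and -0.58, 0.49 and -0.58 on the knockout arrays. That of the class II genes was -0.30, 0.084 and 0.88 on the wild-type arrays and -0.64, 0.52 and -0.44 on the knockout arrays. In bulk RNA, fewer cells of a type and less RNA per cell cannot be told apart, and the part of macrophage RNA in the class II values was not tested.

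Other cell type markers went other ways. The fibroblast markers (8 of 8 tested, 0 called, median difference 0.59) had median deviations of 0.30, -0.38 and -0.81 on the wild-type arrays and -0.45, 1.20 and 0.052 on the knockout arrays. Their median difference was -0.75 within slide 1 and 1.28 within slide 2, and without knockout array 2 it was 0.069, with 2 of 8 negative. The endothelial markers (7 of 7 tested, 0 called, median 0.047, or -0.19 without wild-type array 3) had 0.34, 0.11 and -0.40 on the wild-type arrays and -0.48, 0.34 and 0.16 on the knockout arrays. Knockout array 1 was thus low for the macrophage, endothelial and fibroblast lists as well as for class I and class II, and wild-type array 3 was high for macrophage, class I and class II genes and low for fibroblast and endothelial markers. The part of these cells in the class I values was not tested.

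**Figure D4:**
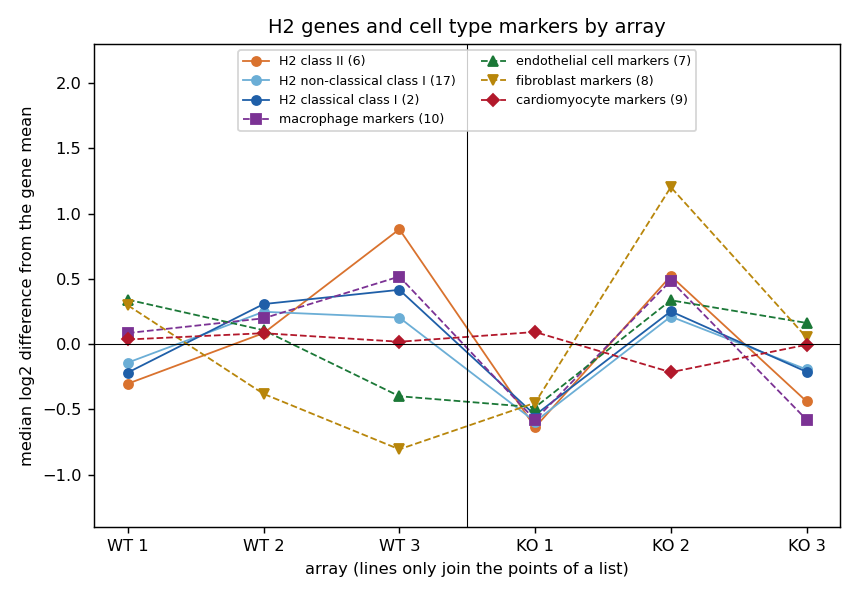
Median log2 deviation from the gene mean of the tested H2 classes (circles, solid lines) and of cell type marker lists (other symbols, dashed lines) on each array, with the number of genes in brackets; lines join the points of a list only. Class II genes and macrophage markers share their highest arrays (wild-type 3 and knockout 2), and the median of the cardiomyocyte markers stays between -0.22 and 0.093.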

How the data were processed

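Cardiomyocyte RNA of 3 H19 knockout and 3 wild-type samples was measured on 1-colour Agilent arrays. Per the file headers, the scanner's processed intensity (Agilent Feature Extraction 10.7.3.1, mm9) is background-subtracted and not normalized between arrays. The authors' deposited value table holds a linear intensity with the same median, 69.7, in all 6 columns and a rank correlation of 1 with the processed intensity, and was made with a tool not given in the sources used here. For the analysis, log2 of the processed intensity minus the array's 75th percentile was used. Control and outlier-flagged spots were left out, the brightest probe stood for a gene, and probes well above background on 3 or more arrays were kept (21920 genes). Genotypes were compared with limma 3.58.1 (lmFit, eBayes, R 4.3.3) and Benjamini-Hochberg adjustment over all genes. The procedure was also run on simulated data in which genes varied independently. That run did not cover shifts shared by many genes of an array. Precision is limited by the number of arrays. Runs of shared bases and motifs were searched by script in the RefSeq promoter windows (GRCm38.p6). RefSeq names matched 33 members by accession, 5 by symbol and 1 by synonym; H2-T3-like and H2-T9 kept the name in the file. Every H2 gene was named, and up to 4 genes of a pathway list by smallest p, besides B2m, Ciita, Cd74, Creb1, Jak1 and the untested ones, chosen after their values were seen. Members and lists were chosen with earlier results of these data known. Alternatives were other background correction, normalization, scaling, filters, probe choice, blocks, the authors' values and leaving out each array. The values of some members of the pathway and marker lists are not reported here.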

Additional observations from a re-analysis of the deposited data

How the results depend on the processing

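No H2 gene was called under any alternative run (other background correction, normalization, scaling, filters and probe choice, the authors' values, a replicate or slide block, or 1 array left out), and the smallest adjusted p of an H2 gene was between 0.067 (without wild-type array 3) and 1. H2 genes at an unadjusted p under 0.05 by limma, 1 in the main run, were 3 without wild-type array 3 and 5 without knockout array 2. There were 0 without wild-type array 2, without knockout array 3 or with quantile normalization. The share of all genes at this level was not computed for those runs. The number of genes called over the whole array, 7, was 3 with quantile normalization, 3 with the authors' deposited values, 118 with median scaling, 1 without a filter on dim probes, 1 with the slide as a block, and 1 to 10 when an array was left out. With the replicate number as a block it was 1, and the smallest adjusted p of an H2 gene was 0.48 by limma. Same-numbered samples deviated from their group means with correlations of -0.217, -0.0517 and 0.0365 over all genes tested. Over the tested H2 genes these correlations were 0.395, 0.193 and -0.628. The numbers were not taken as pairs in the fit reported above, and whether they mark pairs was not tested. Leaving out 1 array gave medians from -0.57 to -0.15 for all tested H2 genes, from -0.82 to -0.10 for class II and from -0.57 to -0.13 for class I. Median scaling gave medians of 0.069 for all tested H2 genes and 0.079 for class I, and turned 17 differences positive: H2-Ab1 0.092, H2-D1 0.12, H2-Eb1 0.069, H2-K1 0.058, H2-Ke2 0.37, H2-Ke6 0.41, H2-M3 0.25, H2-Ob 0.031, H2-Q10 0.082, H2-Q2 0.079, H2-Q5 0.022, H2-Q6 0.10, H2-Q7 0.046, H2-T10 0.41, H2-T23 0.099, H2-T24 0.15 and H2-T9 0.20. This scaling adds the same amount to every gene. Quantile normalization turned H2-Ob (0.053) and H2-T10 (0.0012) positive, the authors' values H2-Ob (0.061) and H2-T10 (0.0013), and normexp H2-Ke6 (0.014). Leaving out 1 array changed the sign of 8 genes, with these ranges: H2-Ab1 -0.64 to 0.044, H2-Eb1 -0.72 to 0.0084, H2-Ke2 -0.20 to 0.075, H2-Ke6 -0.16 to 0.15, H2-M3 -0.35 to 0.093, H2-Ob -0.89 to 0.14, H2-Q8 -1.33 to 0.021 and H2-T10 -0.12 to 0.14. For these the cause was not tested. Signal over background limits H2-Ob, H2-M10.4 and the 14 untested genes, and the H2-T3 probe was nearly as dim as those of H2-Ob and H2-M10.4.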
